A study of Macaca mulatta with 6 samples.

Results

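Genes of vesicle exocytosis, the fusion of a secretory vesicle with the plasma membrane, were followed over the day in the adrenal gland of the rhesus macaque. The set held each gene named alone by a probe set whose symbol starts with SYT, STX, STXBP, VAMP, RAB3, CPLX, SV2 or UNC13, together with SNAP23, SNAP25, SNAP29, NSF, NAPA, NAPB, NAPG, SYN1, SYN2, SYN3 and SYP. Of 11963 genes named alone by a probe set, 64 met this rule, on 98 probe sets, and each gene was read from its probe set with the highest mean. The letters RAB3 also took in 8 GTPases that are not RAB3 isoforms (RAB30, RAB31, RAB32, RAB33A, RAB33B, RAB35, RAB36 and RAB38), and these were kept apart as a role group of their own. Levels are intensities on a linear scale, and differences are on the log2(value + 1) scale. A gene was tested where its mean log2 level reached 7.30, which is the median probe set with controls left out. This kept 48 of the 64 genes (75%), against 7164 of all 11963 genes (59.9%).

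The RNA came from the left adrenal of 6 ovariectomized female macaques that had lived for 3 months in cycles of 12 h light and 12 h dark and had been without food for 12 h. Each clock time had 1 animal, and ages differed with it. The 3 AM and 7 AM animals were both aged 12 years. The 11 AM animal was aged 10 years plus 37 days, the 3 PM animal 8 years plus 106 days, the 7 PM animal 7 years plus 82 days, and the 11 PM animal 8 years plus 70 days. The arrays of 7 AM, 11 AM and 3 PM are called the day arrays here and those of 7 PM, 11 PM and 3 AM the night arrays. When the lights came on is not stated in the labels. Each sample was hybridised to a human expression array, so mismatches between macaque RNA and human probes can lower a reading, and levels were compared within a probe set only.

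A secretory vesicle fuses when a vesicle SNARE (a VAMP protein) zips together with a syntaxin and a SNAP-25 family protein on the target membrane. Munc18 proteins (the STXBP genes) and Munc13 proteins (the UNC13 genes) prepare this complex, complexins hold it, and synaptotagmins trigger fusion when they bind calcium; the ATPase NSF and its SNAP adaptors take the complex apart afterwards. In the adrenal medulla, chromaffin cells release adrenaline and noradrenaline from dense-core granules with this machinery, and its neuronal isoforms (SNAP25, STX1A, VAMP2, SYT1) are the ones known for calcium-triggered release. Cells of the cortex do not store steroids in vesicles and use other family members for general membrane traffic. In whole-gland RNA, fewer cells of a type and less RNA per cell cannot be told apart.

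Both tissues of the gland were present on the arrays. The median intensity of an array lay between 154 at 7 AM and 173 at 3 PM, and no probe set had a value of 0. Of 14 chromaffin cell markers listed, 12 were measured and 9 tested; of 10 adrenal cortex markers, 9 were measured and all 9 of these tested. The chromaffin markers differed between arrays: the summed intensity of the 12 measured ran from 25948 to 41855 on the day arrays, against 16158 to 25159 on the night arrays, with no overlap. All 9 tested chromaffin markers had a higher mean on the day arrays, with a median difference of 0.61 on the log2 scale. Singly, 4 of the 9 had every day array above every night array, against 5.61% of all genes. CHGB, the brightest marker in the sum, overlapped, with 9599.5 at 11 AM and 12650 at 11 PM. All 9 were lowest at 3 AM or 11 PM. The summed intensity of the cortex markers ran from 69722 to 74536 on the day arrays, against 59580.5 to 93515 on the night arrays. Of these 9 markers, 8 had a lower mean by day, with a median log2 difference of -0.27, and all 9 stood above their own mean at 7 PM and at 11 PM.

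Most tested genes of a core exocytosis list had a higher mean on the day arrays, while the wider family showed no common direction. No gene of the set passed adjustment. The 15 genes listed as the core of neuronal and neuroendocrine exocytosis had 12 on single-gene probe sets and 9 tested: SYT1, STX1A, SNAP25, VAMP2, NSF, SYN1, SYP, UNC13B and RAB3A. Of the 48 genes tested, 29 had a higher mean on the day arrays, against 49.1% of all genes. Of the 9 core genes, 7 had a higher mean by day, with a median log2 difference of 0.37 and a range of -0.39 to 0.80. The other 39 tested genes of the set had 22 higher and 17 lower by day, with a median of 0.04, and the median of all 7164 genes was 0.00. Over the 48 genes the highest array was 3 AM for 11, 7 AM for 11, 11 AM for 5, 3 PM for 9, 7 PM for 11 and 11 PM for 1, against 17.1%, 16.8%, 13.5%, 19.4%, 18.3% and 14.8% of all genes. It was 7 AM for 6 of the 9 core genes and for 5 of the other 39. The lowest array was 3 AM or 11 PM for 7 of the 9 and for 15 of the 39, against 35% of all genes. The core list was chosen with earlier results of these data known, so these counts are a description.

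Fitting a 24-h cosine with limma's moderated F test gave no gene of the set an adjusted p under 0.05 (lowest adjusted p = 0.836), and the contrast of day against night gave none either (lowest adjusted p = 0.759). The same holds for all genes, of which 0% passed adjustment in either fit. At an unadjusted p under 0.05, 4 of the 48 genes passed in the cosine fit (8.33%), against 5.56% of all genes. In the contrast 6 of the 48 passed (12.5%), against 5.39% of all genes: 3 were higher by day, where the background was 2.95%, and 3 lower by day, where it was 2.44%. Day arrays lay wholly above night arrays for 4 of the 48 genes (background 5.61%) and wholly below them for 3 (background 5.26%). The counts of genes with no overlap are near the background; the contrast's share is above it by a few genes, and no test of that excess was made. An exact test of 3 arrays against 3 cannot go below 0.1.

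**Figure D1:**
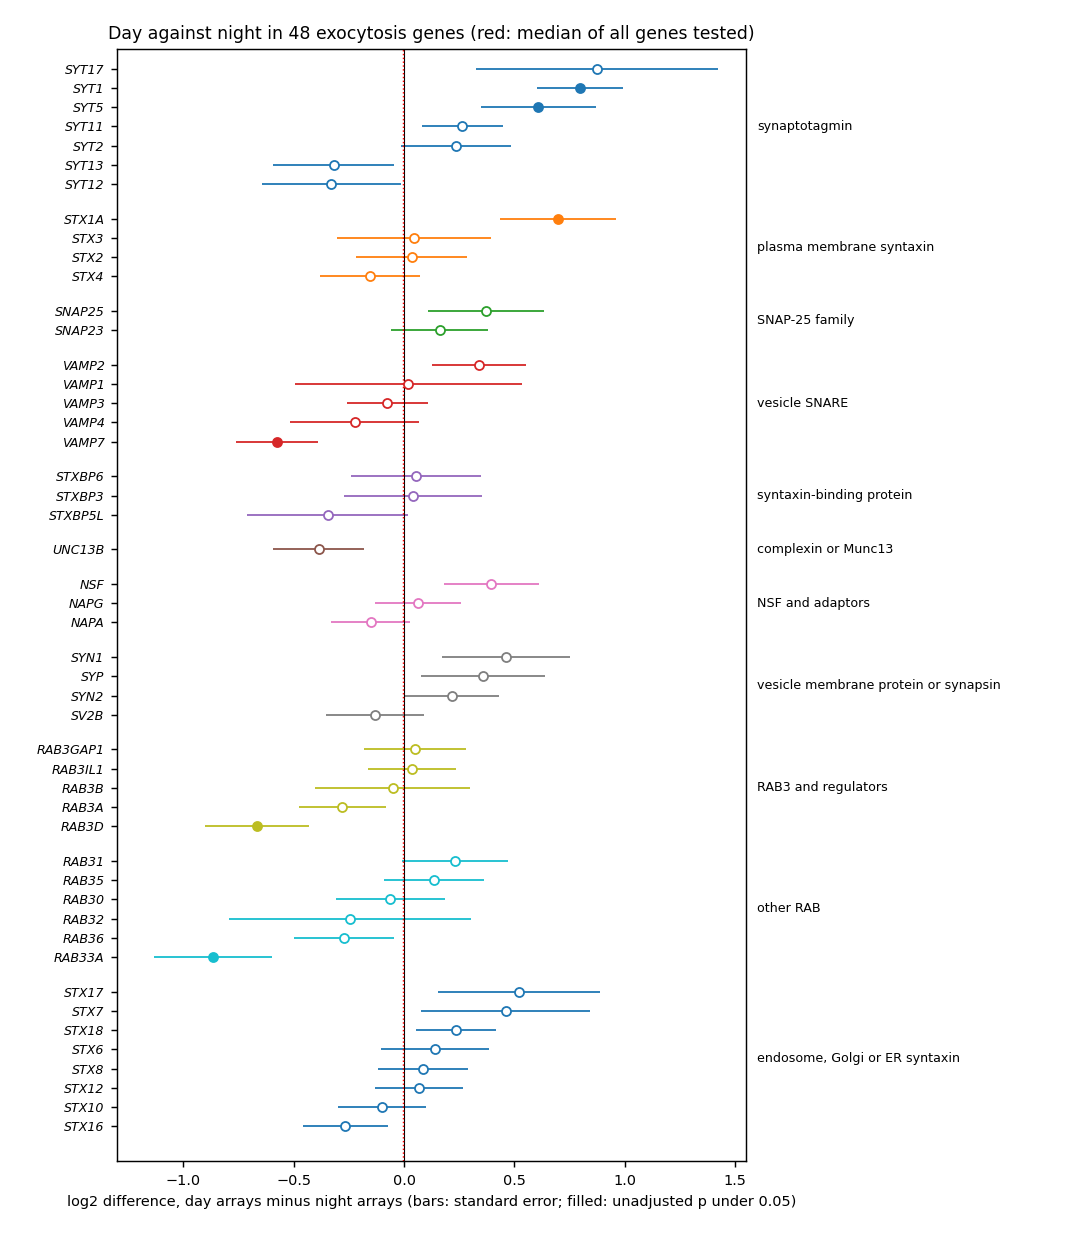
Log2 difference between the mean of the 3 day arrays and the mean of the 3 night arrays for the 48 tested genes, grouped by role, with standard errors of the limma fit; filled points have an unadjusted p under 0.05 and the red line marks the median of all genes tested. Among the filled points, SYT1, STX1A and SYT5 stand to the right at 0.80, 0.70 and 0.61, and VAMP7, RAB3D and RAB33A to the left at -0.58, -0.67 and -0.87, with the other genes on both sides of 0.

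Synaptotagmin 1, the calcium sensor of fast release, had the smallest p of the set. SYT1 read 2448, 1810.4 and 2103 at 7 AM, 11 AM and 3 PM, against 1161, 1146 and 1329 at 7 PM, 11 PM and 3 AM. Each day array stood above each night array. The difference was 0.80 ± 0.19 on the log2 scale (SE), or 1.74-fold higher by day (unadjusted p = 0.00283, adjusted p = 0.759 by limma). It lay between 0.69 and 0.91 when any single array was left out. A second probe set of SYT1 gave 889, 548 and 603 on the day arrays in the same order, against 459.6, 309.6 and 328 on the night arrays, a log2 difference of 0.88. In the cosine fit SYT1 peaked at 10.1 h with a peak 2.07 times its trough (unadjusted p = 0.0388, exact p = 0.217 over the 60 circular orders of the arrays). That p was no longer under 0.05 when the array of 3 AM, of 7 AM, of 7 PM or of 11 PM was left out, where the log2 peak-to-trough difference was 1.01, 0.85, 0.96 and 1.09.

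The rest of the synaptotagmin family did not share one course. SYT5, a calcium sensor also found on dense-core granules, read 385, 230.5 and 282 on the day arrays, against 253, 171 and 163 on the night arrays (7 PM, 11 PM and 3 AM). The 7 PM value stood above that of 11 AM, so the groups overlapped. Its difference was 0.61 ± 0.26 (unadjusted p = 0.0454, adjusted p = 0.894 by limma), with values of 0.49 without 3 AM, 0.41 without 7 AM, 0.63 without 3 PM and 0.53 without 11 PM, none of them with an unadjusted p under 0.05. SYT17 was chosen after its values were seen, as were all genes below that are not core genes, did not have the smallest p of their role group and had no unadjusted p under 0.05. It had the widest spread of the 48 tested genes, from 52 at 3 AM to 357 at 7 AM, a 6.75-fold range, and with a mean log2 level of 7.31 it lay just inside the level filter. SYT2, a close relative of SYT1, had 421, 381 and 328 by day, against 448, 252 and 286 by night. SYT11 differed by 0.26, SYT13 by -0.32 and SYT12 by -0.33. Second probe sets of SYT11 and SYT12, both below the level filter, had the opposite sign, with -0.09 and 0.67. Of the 7 synaptotagmins tested, 5 were higher by day (background 49.1%) and 5 were lowest at 3 AM or 11 PM (background 35%).

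The plasma membrane syntaxins held both a day-high and an evening-high gene. STX1A, the syntaxin of neuronal and chromaffin release, read 890.1, 938 and 892 at 7 AM, 11 AM and 3 PM, against 823, 405 and 523 at 7 PM, 11 PM and 3 AM. The day values stood above the night values, and the 7 PM array was the nearest of these to them. The difference was 0.70 ± 0.26 (1.62-fold, unadjusted p = 0.0273, adjusted p = 0.82 by limma). Its p was no longer under 0.05 without any 1 of the 3 AM, 7 AM, 11 AM, 3 PM or 11 PM arrays, where the log2 difference was 0.65, 0.71, 0.67, 0.71 and 0.47. Without 7 PM the log2 difference was 0.98 (unadjusted p = 0.0023 by limma). The fitted peak was 2.24 times the trough at 12.3 h (unadjusted p = 0.0232 by limma), and the exact p over the 60 orders was 0.0167, the smallest it can give. The limma p of the cosine fit was no longer under 0.05 without 3 AM (log2 1.16) or 11 PM (log2 0.84). The exact test was not repeated with arrays left out. In the exact order test 2 of the 48 genes had p under 0.05, STX1A and VAMP3, against 3.7% of all genes.

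STX3, a syntaxin of apical membranes and of granule fusion in several secretory cells, had a different course. It read 172 at 3 AM, 235 at 7 AM, 338 at 11 AM, 351 at 3 PM, 454 at 7 PM and 325 at 11 PM. The lowest value was at 3 AM and the highest at 7 PM, 2.63 times as high. The fitted peak came at 16.8 h and was 2.21 times the trough (log2 1.14 ± 0.32, SE, unadjusted p = 0.024, adjusted p = 0.836 by limma; exact p = 0.0667). The log2 value was 0.82 without the 3 AM array and 1.01 without 7 PM, neither with an unadjusted p under 0.05. A second probe set of STX3, also above the level filter, did not show it, with 155 at 3 AM, 164 at 7 PM and a log2 peak-to-trough difference of 0.29. STX2 and STX4, which serve secretion in many cell types, had day minus night differences of 0.03 and -0.15.

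SNAP25, the neuronal partner of STX1A in the fusion complex, read 2032, 1267 and 1533 on the day arrays, against 1638, 1140.1 and 976 on the night arrays (7 PM, 11 PM and 3 AM). It was highest at 7 AM and lowest at 3 AM, and the groups overlapped. The difference was 0.37 ± 0.26 (unadjusted p = 0.191 by limma). It lay between 0.19 (without 7 AM) and 0.58 (without 7 PM) when single arrays were left out. Its second probe set gave 1746, 1214 and 1506 by day, against 1293, 685 and 881 by night, a log2 difference of 0.68. SNAP23, the member of this family found in nearly all cells, ran otherwise: 310.1, 276 and 275 by day, against 219.8, 227 and 337 by night. It was highest at 3 AM, where SNAP25 was lowest, with a difference of 0.16 ± 0.22. SNAP29, a SNAP-25 relative of internal membranes, lay below the level filter.

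VAMP2, the vesicle SNARE of neuronal and chromaffin release, read 1432, 1133 and 1103 on the day arrays, against 1152, 801 and 957 on the night arrays. The 7 AM array was highest and 11 PM lowest, and the 7 PM value lay among the day values. The difference was 0.34 ± 0.21 (unadjusted p = 0.147 by limma). Its other probe sets differed from each other, with 0.50 on one and -0.44 on the other, both above the level filter.

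VAMP7, a vesicle SNARE of lysosomes and late endosomes that resists tetanus toxin, ran the other way. It read 528, 578 and 622 by day, against 909, 755 and 916 by night, and each day array stood below each night array. The difference was -0.58 ± 0.19, or 1.49-fold higher by night (unadjusted p = 0.0132, adjusted p = 0.766 by limma). It lay between -0.67 and -0.51 without any single array.

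The other vesicle SNAREs had no day minus night difference beyond their error. VAMP3, found in nearly all cells, kept within a 1.25-fold range, from 1534 at 7 PM to 1924 at 3 AM. Its cosine fit was small but close, with a peak 1.24 times the trough and an R2 of 0.905 (exact p = 0.0333). The moderated test did not pass, with a log2 peak-to-trough difference of 0.31 ± 0.25 (SE, unadjusted p = 0.506, adjusted p = 0.92 by limma). The day minus night difference of VAMP4, a SNARE of the trans-Golgi network, was -0.22 ± 0.29. That of VAMP1, the VAMP2 relative, was 0.02 ± 0.51, with a low of 72.7 at 11 PM and a high of 341 at 7 PM.

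**Figure D2:**
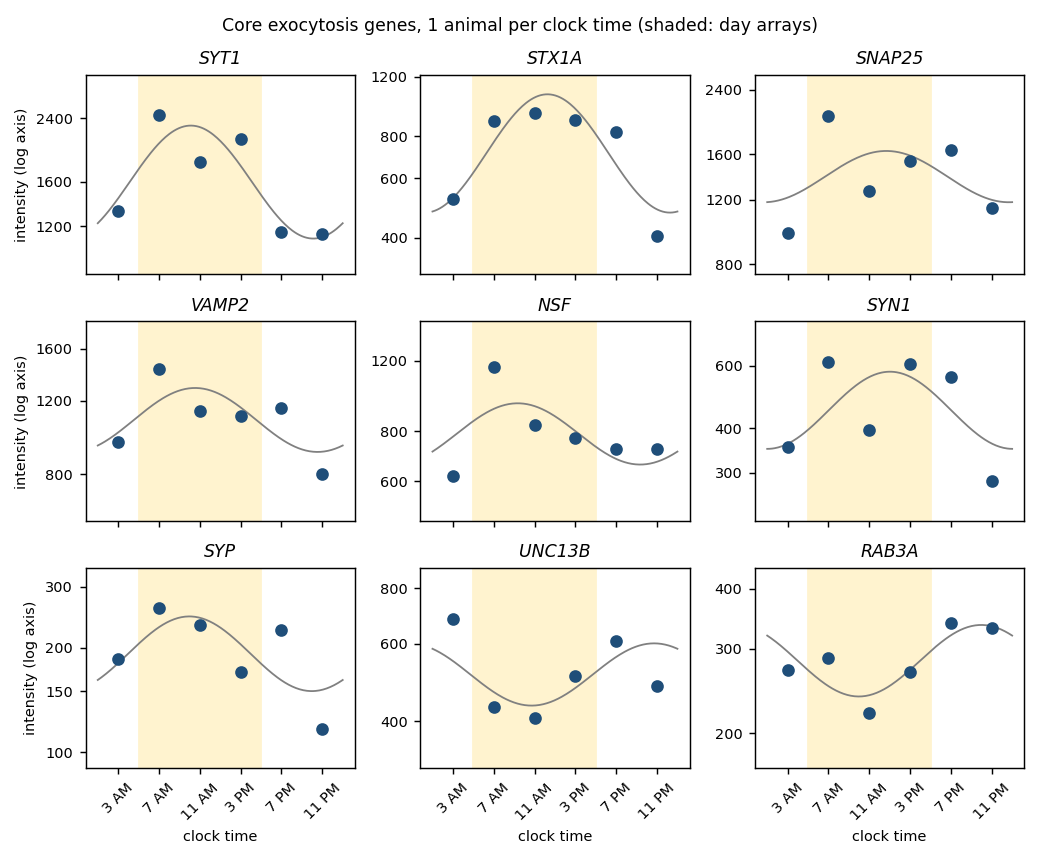
Intensity (log axis) of the 9 tested core genes at each clock time, 1 animal per point, with the fitted 24-h cosine in grey and the day arrays shaded. SYT1, STX1A and NSF have all 3 shaded points above the others, 6 of the 9 genes are highest at 7 AM, and UNC13B and RAB3A run lower on the shaded arrays.

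NSF, the ATPase that takes spent SNARE complexes apart, read 1156, 829.5 and 768 on the day arrays, against 723, 723 and 620 on the night arrays. Each day array stood above each night array, with 7 AM apart from the rest. The difference was 0.39 ± 0.21 (unadjusted p = 0.0998 by limma) and lay between 0.22 and 0.51 without single arrays. The adaptors that tie NSF to the complex stayed within narrow ranges. NAPA, which encodes alpha-SNAP, ran from 1371 at 11 AM to 1798 at 3 AM, and NAPG, which encodes gamma-SNAP, from 145 at 11 PM to 192 at 3 PM. Their differences were -0.15 and 0.06. A second probe set of NAPA, close to the level filter, went the other way with 0.85.

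The tested synapsins SYN1 and SYN2 and synaptophysin (SYP), proteins of the vesicle membrane in neurons and neuroendocrine cells, were lowest at 11 PM. SYN1 read 614, 396 and 606 by day, against 556, 286 and 354 by night. SYP read 261, 232 and 171 by day, against 225, 117 and 185 by night. SYN2, chosen after its values were seen, read 1083, 905 and 986 by day, against 1087, 734 and 772 by night. The 7 PM value lay among the day values in SYN1 and SYP and just above them in SYN2, so the groups overlapped. The differences were 0.46 ± 0.29 for SYN1, 0.36 ± 0.28 for SYP and 0.22 ± 0.21 for SYN2, with unadjusted p of 0.148, 0.235 and 0.338 by limma. With single arrays left out, SYN1 lay between 0.25 (without 11 PM, unadjusted p = 0.432 by limma) and 0.73 (without 7 PM, unadjusted p = 0.028 by limma). SV2B, a vesicle glycoprotein of neurons and endocrine cells, differed by -0.13 ± 0.22. It was highest at 7 PM with 584 and lowest at 3 PM with 353.

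The core genes UNC13B and RAB3A were higher by night, though neither passed the unadjusted threshold. UNC13B, a Munc13 protein that primes vesicles, read 431, 406 and 507 on the day arrays, against 607, 479.7 and 684 on the night arrays. The groups overlapped between 3 PM and 11 PM. Its difference was -0.39 ± 0.21 (unadjusted p = 0.0952 by limma). With single arrays left out it lay between -0.53 (without 11 PM, unadjusted p = 0.0443 by limma) and -0.27 (without 3 AM, unadjusted p = 0.261 by limma). RAB3A, the GTPase that recruits vesicles to the release site, read 287, 219.9 and 268 by day, against 339, 331 and 271 by night, a difference of -0.28 ± 0.20.

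The other RAB3 genes and their regulators differed among themselves. RAB3D, the isoform best known from exocrine and other secretory granules, read 124, 193 and 122 by day, against 215, 268 and 204 by night. Each day array stood below each night array, with 11 AM near the night values. The difference was -0.67 ± 0.24, or 1.59-fold higher by night (unadjusted p = 0.0207, adjusted p = 0.809 by limma). It was -0.57 without 7 AM, -0.55 without 3 PM and -0.55 without 11 PM, none of them with an unadjusted p under 0.05. RAB3B ran from 149.9 at 7 AM to 382 at 3 PM. RAB3GAP1, which switches RAB3 off, ran from 1082 at 3 PM to 1778 at 7 AM. The differences of RAB3B, RAB3GAP1 and RAB3IL1, an exchange factor that binds RAB3A, were -0.05, 0.05 and 0.04.

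The 3 syntaxin-binding proteins tested had no day minus night difference beyond their error. STXBP5L, a tomosyn that competes for syntaxin, read 129, 308 and 378 by day, against 308, 289 and 349.6 by night. Only the 7 AM array stood apart, below the other 5. STXBP3, which serves secretion in many cell types, ran from 129 at 7 PM to 258 at 3 AM, and STXBP6, or amisyn, from 114 at 11 PM to 220 at 3 AM. The differences of these 3 genes lay between -0.35 and 0.05.

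The syntaxins of endosomes, the Golgi and the endoplasmic reticulum had a median difference of 0.11, with 6 of 8 higher by day (background 49.1%). Past the unadjusted threshold were 0 of 8 in the cosine fit (background 5.56%) and 0 of 8 in the contrast (background 5.39%). The median ratio of fitted peak to trough in these syntaxins was 1.25, against 1.35 for all genes. STX17, which serves the fusion of autophagosomes with lysosomes, read 144, 242 and 310.1 by day, against 153, 100.4 and 236 by night, and the groups overlapped. Its difference was 0.52 ± 0.37 (unadjusted p = 0.189 by limma), and its fitted peak was 1.97 times the trough. The 3 AM array moved it: without that array the log2 peak-to-trough difference was 1.79 (unadjusted p = 0.00442 by limma), against 0.98 with all arrays. Over all single arrays left out, this log2 value lay between 0.49 and 1.79. STX7, of late endosomes, differed by 0.46 on the probe set used and by -0.54 and 1.05 on its others. STX18, of the endoplasmic reticulum, had each day array above each night array, at 367, 332 and 338 by day, against 262, 315 and 306 by night, yet the difference was only 0.23 ± 0.18. STX16, of the trans-Golgi network, was lower by day by a log2 difference of -0.27, and 2 further probe sets gave -0.38 and -0.21.

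Among the GTPases that share only the letters RAB3, RAB33A stood out. RAB33A read 241, 211 and 243 on the day arrays, against 632, 370 and 321 on the night arrays, where 7 PM was far above the others. Each day array stood below each night array. The difference was -0.87 ± 0.27, or 1.82-fold higher by night (unadjusted p = 0.0103, adjusted p = 0.766 by limma), and -0.57 at the smallest, without 7 PM. The fitted peak came at 21.2 h and was 2.41 times the trough (unadjusted p = 0.0319 by limma, exact p = 0.117). The limma p of this fit was no longer under 0.05 without 3 AM, 7 AM, 11 AM or 7 PM, with log2 values of 1.27, 1.45, 1.27 and 0.81. RAB32, a regulator of melanosome and mitochondrial traffic, had a low of 69.7 at 7 AM against 202 to 358 on the other arrays. RAB30, RAB31, RAB35 and RAB36 had differences between -0.27 and 0.23.

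**Figure D3:**
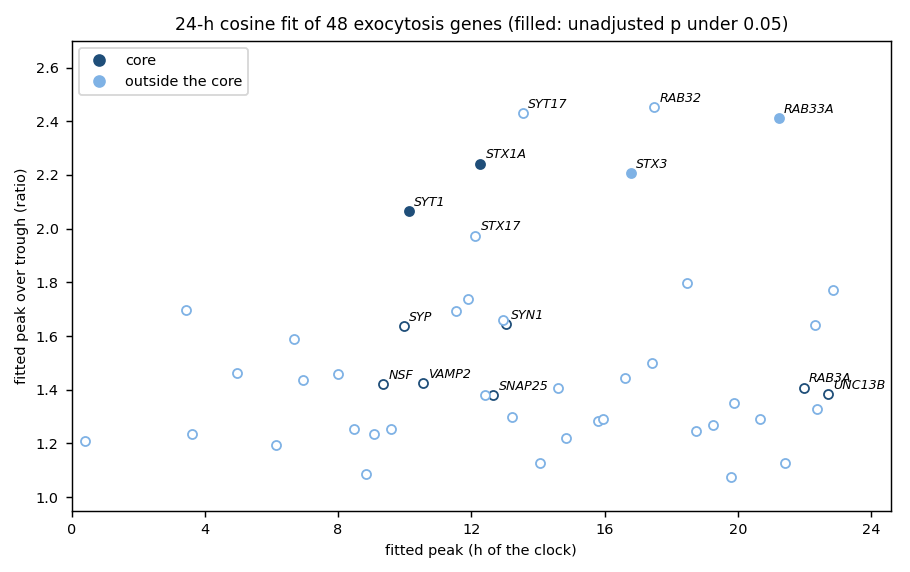
Hour of the fitted peak and ratio of fitted peak to trough for the 48 tested genes, with core genes in dark blue and filled points for an unadjusted p under 0.05. Core genes other than UNC13B and RAB3A peak between 9.35 h and 13 h, and SYT1, STX1A, STX3 and RAB33A are the filled points.

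Fitted peaks of the 48 genes were spread over the day, with 3 between 0 and 4 h, 5 between 4 and 8 h, 10 between 8 and 12 h, 13 between 12 and 16 h, 9 between 16 and 20 h and 8 between 20 and 24 h. Over all genes these windows held 14.2%, 15.1%, 17%, 17.2%, 20% and 16.5%. Of the core genes, 7 peaked between 9.35 h (NSF) and 13 h (SYN1), with UNC13B at 22.7 h and RAB3A at 22 h. The ratio of peak to trough reached 2 in 6 of the 48 genes (12.5%), against 8.33% of all genes. Its median was 1.41 in the 48 genes, against 1.35 in all genes.

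**Figure D4:**
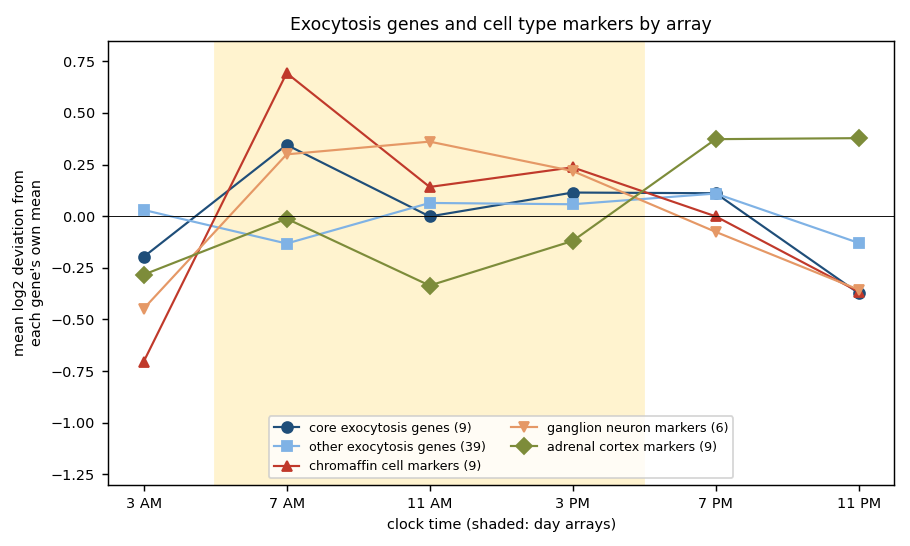
Mean log2 deviation from each gene's own mean over the 6 arrays, for the 9 core exocytosis genes, the other 39 tested genes of the set and 3 marker lists; each clock time is a different animal. Core genes and chromaffin markers are both highest at 7 AM (0.35 and 0.69) and low at 3 AM (-0.20 and -0.70) and 11 PM (-0.37 each), while the other 39 genes stay between -0.13 and 0.11.

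Both the core genes and the chromaffin cell markers were highest at 7 AM and low at 3 AM and 11 PM. The lowest array was 11 PM for the core genes and 3 AM for the chromaffin markers. Since each clock time is 1 animal, the share of medulla in a piece and the hour cannot be told apart. The core genes' mean deviation from the gene means was 0.35 at 7 AM, 0.00 at 11 AM and 0.11 at 3 PM, against 0.11 at 7 PM, -0.37 at 11 PM and -0.20 at 3 AM. The chromaffin markers had 0.69, 0.14 and 0.24 by day, against 0.00, -0.37 and -0.70 by night. TH, which catalyses the first step towards catecholamines, had 8245, 4775 and 5047 by day, against 3748, 2859.6 and 1903 by night, a log2 difference of 1.09 (unadjusted p = 0.00627 by limma). Markers of ganglion neurons, which could also carry SNAP25 and SYT1, had all 6 members higher by day and summed to 2898 to 3235, against 1878 to 2420 by night. The 4 Schwann and glial markers measured, of 6 listed, summed to 535 to 565 by day, against 542 to 765 by night. The adipocyte markers LPL and FABP4 were lower by day, by log2 differences of -1.04 and -0.93 (unadjusted p = 0.0087 and 0.0155 by limma). CD2 of lymphocytes and CD163 of macrophages were higher by day, by 0.84 and 0.73 (unadjusted p = 0.00921 and 0.0231 by limma). Their lists as a whole did not share this direction. Of the 4 lymphocyte markers tested, 2 were higher and 2 lower by day, and of the 2 macrophage markers 1 was higher and 1 lower. The 4 smooth muscle markers tested deviated from their means by 0.81 at 7 PM and -1.40 at 11 PM. The part of these other cell types in the exocytosis genes' values was not tested.

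With the mean level of the chromaffin markers as a covariate, 2 of the 9 core genes were higher by day, against 7 without it. SYT1 then had a difference of 0.71 (unadjusted p = 0.073 by limma), STX1A 0.33 (unadjusted p = 0.479) and SYT5 -0.14 (unadjusted p = 0.687). The covariate comes from the same 6 arrays and separates day from night itself. RAB3D and VAMP7, which were higher by night, had -0.48 and -0.48 in this fit, with unadjusted p of 0.276 and 0.182. RAB33A, also higher by night, had -1.52 in this fit (unadjusted p = 0.00375 by limma).

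Partner genes were listed apart from the set: 37 that prime or tether vesicles or build the active zone, 8 exocyst subunits and 12 SNAREs of the endoplasmic reticulum and Golgi. Of these 57, 48 were measured and 28 tested, and 18 of the 28 were higher by day (background 49.1%), with a median difference of 0.06. At an unadjusted p under 0.05, 3 of the 28 passed the cosine fit (background 5.56%), 2 were higher by day (background 2.95%) and 1 was lower (background 2.44%). PPFIA2, a liprin of the active zone, read 489, 411 and 462 by day, against 350.3, 241 and 238 by night, a difference of 0.73 ± 0.22 (unadjusted p = 0.00806, adjusted p = 0.766 by limma). GOSR1, a SNARE of the Golgi, differed by 0.49 ± 0.18. CADPS2, which primes dense-core granules, ran the other way, with 289, 186 and 239.8 by day, against 368, 383 and 394 by night, a difference of -0.70 ± 0.21 (unadjusted p = 0.00935, adjusted p = 0.766 by limma) and a fitted peak at 23.8 h. SYNGR1, a vesicle membrane protein, peaked at 7.54 h at 1.88 times its trough (unadjusted p = 0.0467 by limma). The 3 exocyst subunits tested, which tether vesicles at the membrane, differed by -0.07 to 0.26, and none passed.

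**Figure D5:**
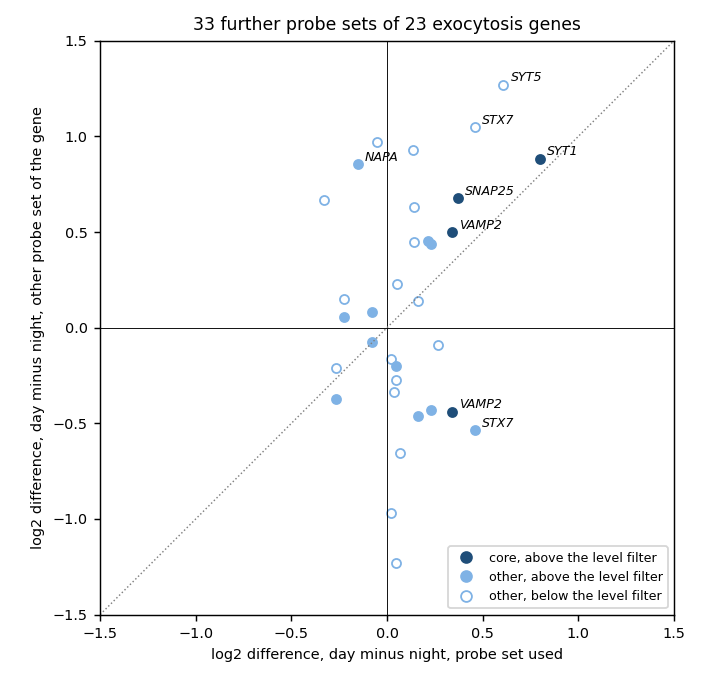
Log2 day minus night difference on the probe set used (horizontal) and on each other probe set of the same gene (vertical), with the dotted line marking equal values. SYT1 and SNAP25 lie above 0 on both axes, VAMP2 has 1 point above 0 and 1 below, and many other genes lie off the line.

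Other probe sets of the same genes repeat the measurement on the same arrays. There were 33 of them for 23 of the tested genes, and 15 of the 33 had a day minus night difference of the same sign as the probe set used. Of the 15 that lay above the level filter, 7 had the same sign. For the core genes there were 4, and 3 had the same sign, those of SYT1, SNAP25 and 1 of VAMP2. The second probe set of SYN2 gave 0.45 against 0.22, and that of SYT5, below the filter, 1.27 against 0.61. In the set as a whole, then, the direction on a single probe set was often not shared by another.

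The 16 genes below the level filter were CPLX2, CPLX3, RAB33B, RAB38, RAB3GAP2, SNAP29, STX5, STX11, STXBP2, SV2A, SV2C, SYN3, SYTL2, UNC13A, VAMP5 and VAMP8. Their mean intensities lay between 11.2 and 121, where a human probe set on macaque RNA need not report the transcript. CPLX2, a complexin of neurons and chromaffin cells, read 72.6, 80.1 and 132 by day, against 72, 103 and 38 by night. SV2A, a glycoprotein of secretory vesicles, read 59.5, 19.6 and 24.9 by day, against 22.4, 17.3 and 22.9 by night, so only 7 AM stood apart. UNC13A, the Munc13 protein of most brain synapses, stayed between 6.8 and 14.8.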

How the data were processed

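The labels give 1 array for each of 6 clock times. The deposited values are 1 intensity per probe set on a linear scale, from 0.1 to 40394, and the authors had already scaled them, since trimmed means of the arrays lay between 324.7 and 324.9; the summary software is not named in the labels. Total RNA was copied from an oligo-dT primer and labelled by in vitro transcription, per the labels' protocols. Of 22283 probe sets, 68 were controls, 19065 named 1 gene, 1043 several and 2107 none in the platform annotation. All 64 symbols were found in the macaque RefSeq gene table (T2T-MMU8v2.0). In 22 of the 64 genes the probe set used carries a suffix marking probes shared between transcripts.

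Values were converted to log2(value + 1). A 24-h cosine (3 residual degrees of freedom) and the contrast of day against night (4) were fitted to 7164 genes with limma 3.58.1 in R 4.3.3, with Benjamini-Hochberg adjustment over all of them and a threshold of 0.05. With 1 animal per clock time the error is the spread of animals around the fit, and the number of arrays limits the precision. R2 was also compared over 60 circular orders. The fits were tested on simulated data. Genes, lists and tests were chosen with earlier results of these data known. Named were the core genes, genes with an unadjusted p under 0.05, and the gene with the smallest p in each role group in each fit; partner genes were named by the same threshold. TH and other genes outside this rule were chosen after their values were seen. Alternatives changed the filter, pseudocount, normalization, probe set rule, prior, covariates and arrays used. No sequences were printed, since none were used here.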

Additional observations from a re-analysis of the deposited data

How the results depend on the processing

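Over all genes, 0 passed adjustment in the cosine fit by limma's moderated F test (398 at an unadjusted p under 0.05) and 0 in the contrast (386 at an unadjusted p under 0.05), except that the stricter filter gave 1 in the cosine fit among 3804 genes tested and leaving out 1 array gave 0 to 1 in the contrast. Of the exocytosis genes, 4 were past the unadjusted threshold in the cosine fit. The count became 2 under each of 4 settings (no level filter, the stricter one, median centring, age as a covariate) and 1 without moderation. It was 6 with the chromaffin level as a covariate and 2 to 6 with 1 array left out. The 3 higher by day became 1 without moderation and 1 without the 3 AM and 3 PM arrays, and 1 to 5 with 1 array left out: 1 without 3 PM, 1 without 11 PM and 5 without 7 PM. The 3 lower by day became 1 with the stricter filter, where 23 genes of the set were tested, and 2 to 4 with 1 array left out. Among calls past the unadjusted threshold, SYT5 turned in direction with the chromaffin level as a covariate (-0.14 in the contrast), and so did STX3, whose peak moved by over 6 h with age as a covariate (log2 1.08). With the chromaffin covariate, genes that had passed no threshold in the contrast also turned: SNAP25 (-0.41), SYN1 (-0.17), VAMP2 (-0.03), NSF (-0.03), SYP (-0.01), STX3 (-0.48) and STXBP5L (0.53). Of the alternatives for named genes, 246 in the contrast and 239 in the cosine fit kept their side of the unadjusted threshold, 27 and 30 lost it, and 5 and 9 gained it; where neither fewer genes nor fewer arrays account for a move, its cause was not tested. No paired analysis was possible because the animals carry no shared numbers, with 1 at each hour. Detection calls were not used here, and the level filter alone limits dim probe sets.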
